A study of Mus musculus with 6 samples.

Results

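The genes described here are 35 genes of fatty acid oxidation and ketogenesis, of 35540 genes with a symbol in the liver RNA-seq table. They are a list of named genes, drawn up with earlier results of these data known, and no threshold on measured values was used. They comprise the regulator *Ppara*, 18 mitochondrial genes, 7 peroxisomal genes, 4 genes whose products are found in both organelles, the ketogenic gene *Bdh1*, the 2 omega-hydroxylases *Cyp4a10* and *Cyp4a14*, and 2 other PPARA targets, *Pdk4* and *Vnn1*. All 35 passed the filter on low values, through which 14189 genes were tested.

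The RNA-seq compared livers of 2 genotypes among littermates, 3 mice each: *Surf4* fl/fl *Alb-Cre*+ and, as controls, *Surf4* fl/fl *Alb-Cre*-. Both carried loxP sites around exon 2 of *Surf4*, which encodes a receptor that loads secreted proteins for export from the endoplasmic reticulum, and differed in a *Cre* transgene driven by the albumin promoter, which is active in hepatocytes. The mice were kept on the C57BL/6 J background and on the 5L0D diet, their age is not given in the labels, and overnight fasting before collection is stated for the study's samples in general. Replicate 2 was a female and the other two replicates were males, in either genotype.

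Mitochondria oxidize most long-chain fatty acids in the liver. The fatty acid is activated to an acyl-CoA, passes the mitochondrial membranes as a carnitine ester, and is then shortened in repeated cycles of dehydrogenation, hydration, dehydrogenation and thiolysis, and during fasting much of the acetyl-CoA that results is turned into ketone bodies. Peroxisomes shorten very long-chain and branched fatty acids and bile acid side chains, the CYP4A enzymes oxidize the terminal methyl group in the endoplasmic reticulum, and the nuclear receptor PPARA, bound by fatty acids, raises the transcription of genes in all of these routes.

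*Surf4* itself was measured at 59.0, 71.8 and 54.3 TPM (an abundance corrected for transcript length that adds up to 1000000 in each mouse) in the *Alb-Cre*+ mice and at 92.5, 94.5 and 92.5 TPM in the controls. Each *Alb-Cre*+ mouse was below each control, at a mean of 66.3% of the control level, where the remaining exons of the deleted allele still count. The 6 hepatocyte markers made up 4.97% to 6.75% of all TPM in each mouse, and the 4 adipocyte markers and the 4 muscle markers were summed to at most 0.854 and 0.906 TPM in any mouse. Between 10059 and 11125 genes reached 1 TPM in the *Alb-Cre*+ mice and between 10230 and 10821 in the controls. In bulk tissue, fewer cells of a type and less RNA per cell cannot be told apart.

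No gene of the 35 passed an adjusted p of 0.01 between genotypes (limma, Benjamini-Hochberg over 14189 genes), and neither did any other gene (0% of all genes tested). *Surf4*, whose genotypes did not overlap, was thus not called either, so the lack of calls does not show that levels were alike. The study's own DESeq2 comparison of these genotypes did report genes under a false discovery rate of 0.01. At an unadjusted two-sided p under 0.05, only *Cpt1a* was called among the 35, and it was lower in *Alb-Cre*+ mice; 0.958% of all genes tested were called lower and 0.803% higher at that level. Of the 35, 19 had a higher mean and 16 a lower mean in *Alb-Cre*+ mice, and their median log2 fold change was 0.016, beside -0.0017 over all genes tested. The smallest adjusted p of the 35 was 1.00. In same-numbered mice, 6 of the 35 were higher and 9 lower in the *Alb-Cre*+ mouse of all 3 pairs, where 11.5% of all genes tested were higher and 12.4% lower in all 3.

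Same-numbered mice of the 2 genotypes deviated together, though the labels do not give pairs. With the replicate number as a block in the same limma model, 3 of the 35 genes had an unadjusted p under 0.05, *Ppara*, *Cpt1a* and *Bdh1*, all lower in *Alb-Cre*+ mice, where 2.42% of all genes tested were called lower and 2.28% higher. The smallest adjusted p of the 35 under the block was 0.40, that of *Bdh1*. The block left 24 of the 35 genes with a 95% interval inside a log2 change of 0.5 in either direction, and without the block 10 of 35 intervals lay inside it.

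**Figure D1:**
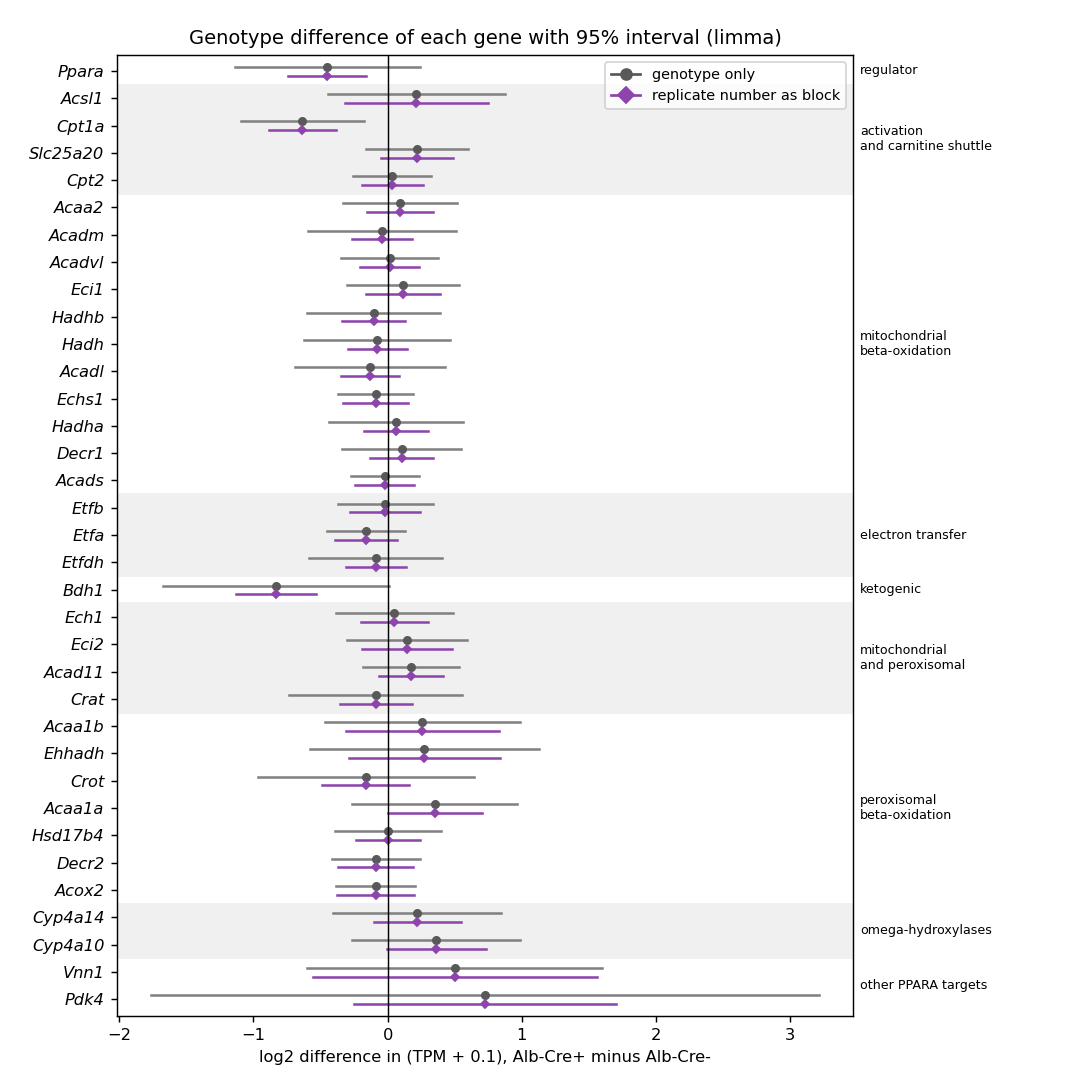
Log2 difference in TPM + 0.1 between 3 *Alb-Cre*+ and 3 *Alb-Cre*- mice (horizontal axis) for each of the 35 genes (vertical axis, grouped by role), with 95% intervals from limma without the block (grey circles) and with the replicate number as block (purple diamonds). *Cpt1a* is the only gene whose interval lies below 0 in both fits, and those of *Ppara* and *Bdh1* lie below 0 with the block.

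*Ppara*, the nuclear receptor that regulates most of the other genes, had 63.0, 89.2 and 42.0 TPM in *Alb-Cre*+ replicates 1, 2 and 3, and 85.3, 105.5 and 66.8 TPM in the controls. Each *Alb-Cre*+ mouse was below the control of the same number, and the genotypes overlapped. The mean was 64.7 ± 23.6 TPM in *Alb-Cre*+ mice and 85.9 ± 19.4 TPM in controls (SD, n = 3 each), and the log2 fold change -0.45 (standard error 0.29, limma adjusted p = 1.00; with the block 0.12 and 0.77). *Ppara* ranked 34 of the 35 genes by mean TPM.

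The next 4 genes act before the cycle itself. *Acsl1* makes the acyl-CoA, *Cpt1a* forms the acylcarnitine on the outer mitochondrial membrane, *Slc25a20* carries it across the inner membrane, and *Cpt2* restores the acyl-CoA inside. The *Cpt1a* step is the controlled entry point of the route and is inhibited by malonyl-CoA.

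*Cpt1a* had 158, 179 and 130.3 TPM in the *Alb-Cre*+ mice, and 273, 269.6 and 187 TPM in the controls. The highest *Alb-Cre*+ mouse was below the lowest control, and all 3 pairs of same-numbered mice went the same way, by -0.79, -0.59 and -0.52 on the log2 scale. The log2 fold change was -0.63 (standard error 0.20, limma adjusted p = 1.00; with the block 0.099 and 0.43), a mean level at 64.0% of the control. An exact two-sided permutation test gave p = 0.1, the smallest that 3 mice against 3 allow. Any gene without overlap gives this value, so it adds nothing to the lack of overlap.

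None of the other genes of the shuttle was called. *Slc25a20* had 177, 186 and 163 TPM in *Alb-Cre*+ mice and 159, 176 and 121 TPM in controls; the log2 fold change was 0.22 (standard error 0.16, limma adjusted p = 1.00), and each *Alb-Cre*+ mouse was above its same-numbered control. *Cpt2* ranged from 89.0 to 107.5 TPM in *Alb-Cre*+ mice and from 89.2 to 99.4 TPM in controls. *Acsl1* had 573, 315 and 543 TPM in *Alb-Cre*+ mice and 513, 389 and 314 TPM in controls. *Alb-Cre*+ replicates 1 and 3 were above every control, and replicate 2, the female, was next to the lowest control, so the genotypes overlapped. The log2 fold change of *Acsl1* was 0.21 (standard error 0.28).

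Ratios within a mouse remove a factor shared by both genes. *Cpt1a* per *Slc25a20* was 0.889, 0.960 and 0.800 in *Alb-Cre*+ mice and 1.72, 1.53 and 1.54 in controls, with no overlap. *Cpt1a* per *Cpt2* was 1.64 ± 0.33 and 2.60 ± 0.45 (SD, n = 3 each), also with no overlap. These are 2 of 9 ratios computed after the values had been seen, of which 4 did not overlap between genotypes, and they carry no test. No share over ratios of other genes was computed, so the count of 4 has no background to be read against.

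*Cpt1a* lies on chromosome 19 at 3322334 to 3385733, plus strand (GRCm38, GENCODE M21). Its main transcript took 98.0% ± 0.3 of the gene's TPM in *Alb-Cre*+ mice and 96.9% ± 0.8 in controls (SD, n = 3 each), so that the lower level was that of this transcript. The bases before exon 1 of the main transcript are shown because this is the gene with the lowest p of the 35 without the block. The stretch is chr19:3323051-3323284, plus strand (RefSeq window, GRCm38.p6), which lies inside the bounds of the gene, since another transcript starts further upstream, and outside any annotated exon. Capitals mark TGACCT, the reverse complement of the nuclear receptor motif AGGTCA, and the GC box CCGCCC, the reverse complement of GGGCGG. At its end the stretch breaks off inside a match to the motif CCAAT, which runs on into exon 1 and is not marked.

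Cpt1a: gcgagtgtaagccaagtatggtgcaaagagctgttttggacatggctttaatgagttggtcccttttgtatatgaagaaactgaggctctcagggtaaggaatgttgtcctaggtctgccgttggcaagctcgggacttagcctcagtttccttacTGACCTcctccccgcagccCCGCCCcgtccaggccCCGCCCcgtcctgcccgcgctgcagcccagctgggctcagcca

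AGGTCA, read on both strands, occurred in the 250 bases before the start of 4 of the 28 genes that had a RefSeq window, *Acadm*, *Acadvl*, *Cpt1a* and *Echs1*, which is 12.9% of their 31 windows beside 14% of all 32851 windows. The direct repeat of AGGTCA with 1 base between, the textbook element of PPARA, occurred in 0 of the 31 windows and in 0.0335% of all. At so low a rate, 0 of 31 cannot tell these genes from others, and only the exact repeat within the 250 bases was searched. The GC box GGGCGG occurred in 61.3% of the windows and 32.7% of all, CCAAT in 45.2% and 33.8%, TATAAA in 0 of 31 and 12.4%, and the E-box CACGTG in 0 of 31 and 6.02%. These are the motifs searched, on both strands, and AGGTCA is contained in its repeat. The windows had a median GC content of 58.8%, beside 52.4% over all windows. No RefSeq window was used for *Cyp4a14*, *Acaa2*, *Vnn1*, *Cyp4a10*, *Crat*, *Decr1* and *Hsd17b4*.

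No gene of the 11 in the mitochondrial cycle was called. Their log2 fold changes ran from -0.13 (*Acadl*) to 0.12 (*Eci1*) with a median of -0.020, 5 were higher and 6 lower, and 0 had an unadjusted p under 0.05 with or without the block. They include 4 acyl-CoA dehydrogenases for very long, long, medium and short chains. *Acadvl* had 353, 399 and 316 TPM in *Alb-Cre*+ mice and 345, 404 and 309 TPM in controls, and *Acadm* had 442, 544 and 342 TPM beside 461, 559 and 348 TPM. In both genes the genotypes overlapped almost wholly, and the order of the replicates was the same in each genotype. *Acads* ranged from 126 to 141 TPM in *Alb-Cre*+ mice and from 131 to 141 TPM in controls.

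*Hadha* and *Hadhb* encode the alpha and beta subunits of the trifunctional protein, which carries out the last 3 steps on long chains. *Hadha* had 215, 236 and 170.0 TPM in *Alb-Cre*+ mice and 207, 245 and 150.4 TPM in controls. *Hadhb* had 267, 308 and 220.0 TPM, and 291, 353 and 219 TPM. Each gene overlapped between genotypes, with log2 fold changes of 0.063 for *Hadha* (standard error 0.21) and -0.10 for *Hadhb* (standard error 0.21; limma adjusted p = 1.00 for each).

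*Hadha* per *Hadhb* was 0.806, 0.768 and 0.773 in *Alb-Cre*+ mice and 0.710, 0.693 and 0.687 in controls. Every *Alb-Cre*+ mouse was above every control, with means of 0.782 ± 0.021 and 0.697 ± 0.012 (SD, n = 3 each); this is another of the 9 ratios and was not tested. The main transcript held 51.7% to 56.2% of *Hadha* and 47.3% to 58.7% of *Hadhb*, and 23.7% of the 31-base stretches of *Hadhb* also occur in other annotated genes, *Gm13910* and *Gm9108* among them. The part of this shared sequence in the ratio was not tested.

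The genes start head to head on chromosome 5, *Hadha* at 30155162 on the minus strand and *Hadhb* at 30155248 on the plus strand (GRCm38, GENCODE M21). The 85 bases between the annotated starts are shown because this short stretch lies before both genes. They are chr5:30155163-30155247, read on the plus strand (RefSeq window of *Hadhb*, GRCm38.p6), with a GC content of 69.4%. Capitals mark the GC box GGGCGG, which occurs 2 times.

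Hadha-Hadhb: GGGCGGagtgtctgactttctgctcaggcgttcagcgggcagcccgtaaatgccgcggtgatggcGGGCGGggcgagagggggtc

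*Etfa* and *Etfb* form the flavoprotein that takes electrons from the acyl-CoA dehydrogenases, and *Etfdh* hands them to ubiquinone. All 3 genes had a lower mean in *Alb-Cre*+ mice, with a median log2 fold change of -0.088 and none at an unadjusted p under 0.05. *Etfa* had 515, 491 and 437 TPM in *Alb-Cre*+ mice and 549.6, 548 and 516 TPM in controls. The genotypes did not overlap, but the highest *Alb-Cre*+ mouse, at 515.4 TPM, was next to the lowest control, at 515.6 TPM. The log2 fold change was -0.16 (standard error 0.12, limma adjusted p = 1.00). The exact two-sided permutation p was 0.1, the smallest possible and again fixed by the lack of overlap. *Cpt1a* and *Etfa* were the 2 of the 35 genes that did not overlap, both lower, where 2.71% of all genes tested were lower without overlap and 2.18% higher.

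**Figure D2:**
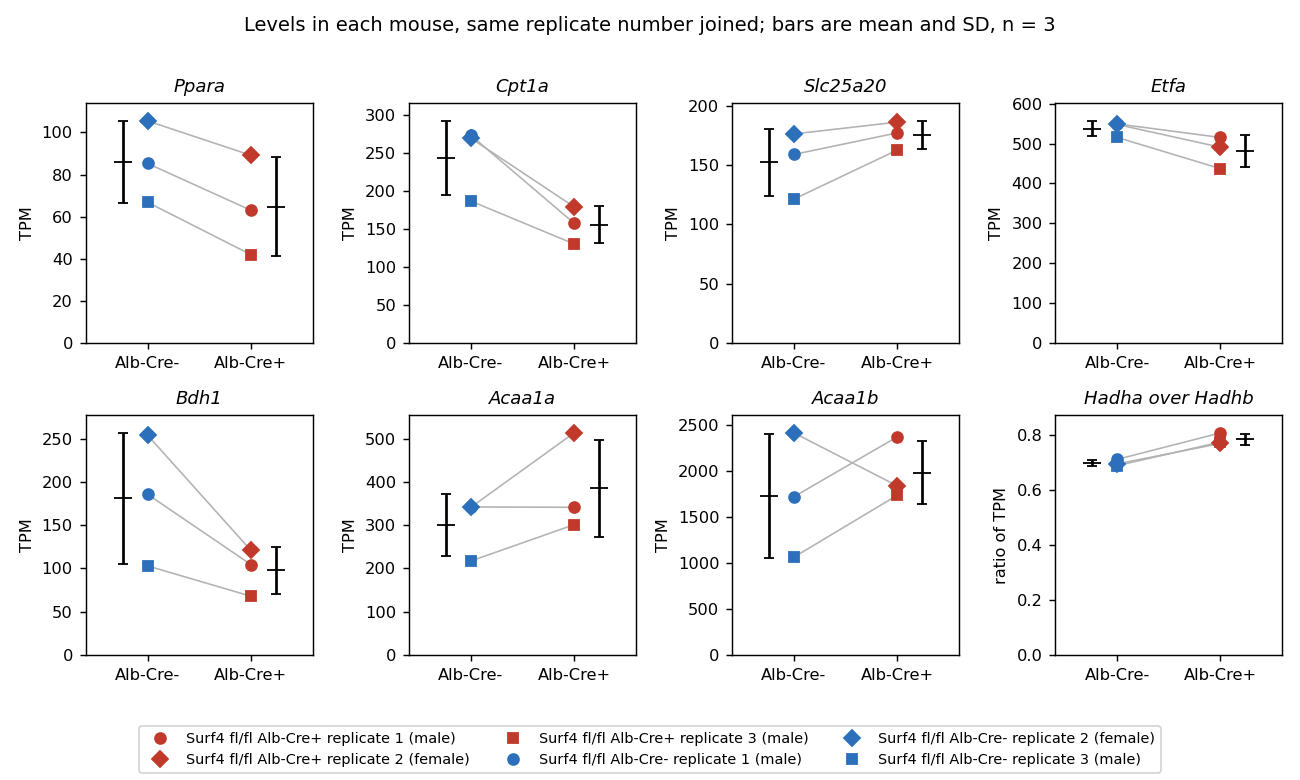
TPM in each mouse (vertical axes, from 0) for 7 genes and the ratio of *Hadha* to *Hadhb* (last panel), *Alb-Cre*- at the left and *Alb-Cre*+ at the right, with lines between mice of the same replicate number and bars for mean and SD (n = 3). All 3 lines of *Ppara*, *Cpt1a*, *Etfa* and *Bdh1* go down, those of *Slc25a20* and of the ratio go up, and those of *Acaa1b* cross.

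*Bdh1* encodes the mitochondrial enzyme that reduces acetoacetate to 3-hydroxybutyrate, the ketone body released in the largest amount during fasting. It had 104.6, 121 and 67.9 TPM in *Alb-Cre*+ mice and 186, 254 and 103 TPM in controls. *Alb-Cre*+ replicates 1 and 2 were above control replicate 3, so the genotypes overlapped, and each same-numbered pair was lower in the *Alb-Cre*+ mouse, by -0.83, -1.07 and -0.60 on the log2 scale. The mean stood at 54.1% of the control. The log2 fold change of -0.83 was the lowest of the 35 (standard error 0.36, limma adjusted p = 1.00; with the block 0.12 and 0.40).

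*Bdh1* lies on chromosome 16 at 31422280 to 31458901, plus strand (GRCm38, GENCODE M21), and its main transcript held 89.8% ± 0.6 of the gene's TPM in *Alb-Cre*+ mice and 88.4% ± 0.8 in controls (SD, n = 3 each). The bases before the start of that transcript are shown beside those of *Cpt1a* because these genes had the lowest log2 fold changes. The stretch is chr16:31422047-31422279, plus strand (RefSeq window, GRCm38.p6), with a GC content of 49.8%, and it held none of the motifs searched, so it has no capitals.

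Bdh1: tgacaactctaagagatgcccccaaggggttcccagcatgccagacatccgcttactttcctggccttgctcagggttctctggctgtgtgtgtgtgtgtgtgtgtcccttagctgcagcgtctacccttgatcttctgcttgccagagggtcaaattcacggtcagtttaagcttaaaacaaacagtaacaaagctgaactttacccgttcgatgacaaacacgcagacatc

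The list of 7 further genes of ketone body formation, use and transport, described here by its counts, had 4 higher and 3 lower means, a median log2 fold change of 0.16, and none at an unadjusted p under 0.05. With the block, 1 of the 7 was higher at that level. Their summed level was 0.274%, 0.233% and 0.205% of all TPM in *Alb-Cre*+ mice and 0.256%, 0.252% and 0.168% in controls. These sums overlapped between genotypes.

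The 7 peroxisomal genes had a median log2 fold change of 0.0019, from -0.16 (*Crot*) to 0.35 (*Acaa1a*), with 4 higher and 3 lower. No gene of the 7 moved in 1 direction in all 3 pairs, and none had an unadjusted p under 0.05 with or without the block. *Ehhadh*, the bifunctional hydratase and dehydrogenase of the PPARA-responsive route, had 1338, 1370 and 1065 TPM in *Alb-Cre*+ mice and 1067, 1723 and 602 TPM in controls. The *Alb-Cre*+ mice lay inside the control range, and the log2 fold change of 0.27 (standard error 0.36, limma adjusted p = 1.00) was -0.12 without *Alb-Cre*- replicate 3. *Acox2*, the oxidase for bile acid side chains, ranged from 129 to 145 TPM and from 131 to 158 TPM, *Hsd17b4*, the multifunctional enzyme 2 of branched substrates, from 282 to 340 TPM and from 258 to 356 TPM, and *Decr2* from 141 to 163 TPM and from 141 to 185 TPM.

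The 3-ketoacyl-CoA thiolases *Acaa1a* and *Acaa1b* are near copies on chromosome 9. Their coding sequences have 1272 bases each and are 96.5% identical, with an identical run of 327 bases, and 50.1% of the 31-base stretches of *Acaa1b* also occur in another gene, *Acaa1a* foremost. The start of the coding sequence in exon 1 is shown for each (GENCODE M21 transcripts, GRCm38), *Acaa1a* at chr9:119341515-119341574 on the plus strand and *Acaa1b* at chr9:119156935-119156994 on the minus strand. Capitals mark the 1 base of these 60 that differs.

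Acaa1a: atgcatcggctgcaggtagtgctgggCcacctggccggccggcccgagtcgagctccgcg

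Acaa1b: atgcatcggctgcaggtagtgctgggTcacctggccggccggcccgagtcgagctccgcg

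*Acaa1a* had 341, 513 and 301 TPM in *Alb-Cre*+ mice and 342, 341 and 217 TPM in controls, and *Acaa1b* had 2371, 1838 and 1736 TPM beside 1720, 2414 and 1063 TPM. In the female pair *Acaa1a* was higher and *Acaa1b* lower in the *Alb-Cre*+ mouse. The log2 fold changes were 0.35 for *Acaa1a* (standard error 0.26) and 0.26 for *Acaa1b* (standard error 0.31; limma adjusted p = 1.00 for each), and that of *Acaa1b* was -0.054 without *Alb-Cre*- replicate 3. Reads from an identical stretch can be assigned to either copy, so each value is uncertain. Their sum was 2367 ± 338 TPM in *Alb-Cre*+ mice and 2032 ± 738 TPM in controls (SD, n = 3 each), with overlap.

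Of the 4 genes with products in mitochondria and peroxisomes, *Acad11*, an acyl-CoA dehydrogenase, was higher in all 3 pairs, at 208, 211 and 179 TPM in *Alb-Cre*+ mice and 201, 183 and 148 TPM in controls, and the genotypes overlapped. *Ech1* and *Eci2*, isomerases for unsaturated chains, and *Crat*, the carnitine acetyltransferase, each had pairs in both directions. The 4 log2 fold changes ran from -0.087 to 0.18.

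*Cyp4a14* and *Cyp4a10* were the most abundant of the 35 genes, at a mean of 5006 and 3258 TPM. *Cyp4a10* had 4177, 3624 and 3087 TPM in *Alb-Cre*+ mice and 3295, 3416 and 1949 TPM in controls. *Cyp4a14* had 5822, 5943 and 4300 TPM, and 4774, 5819 and 3377 TPM. Both genes were higher in the *Alb-Cre*+ mouse of all 3 pairs, with overlap between genotypes, and had log2 fold changes of 0.36 and 0.22 (standard error 0.27 for each, limma adjusted p = 1.00). They lie close together on chromosome 4, their coding sequences are 76.2% identical with no identical run over 23 bases, and 44.9% of the 31-base stretches of *Cyp4a10* occur in other genes, with *Cyp4a32* and *Cyp4a31* the leading ones, beside 1.99% of those of *Cyp4a14*.

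*Pdk4*, the kinase that shuts off pyruvate dehydrogenase in fasting, varied more among controls than any other gene of the 35. It had 31.6, 38.4 and 7.58 TPM in *Alb-Cre*+ mice and 12.0, 54.4 and 3.04 TPM in controls, a 17.9-fold range among controls, and its log2 fold change of 0.73 (standard error 1.06, limma adjusted p = 1.00) was -0.28 without *Alb-Cre*- replicate 3. *Vnn1*, a pantetheinase, had 84.1, 84.8 and 98.8 TPM beside 78.2, 113 and 28.0 TPM. Its log2 fold change of 0.50 (standard error 0.47) was -0.081 without the same mouse. For both genes the *Alb-Cre*+ mice lay inside the control range.

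**Figure D3:**
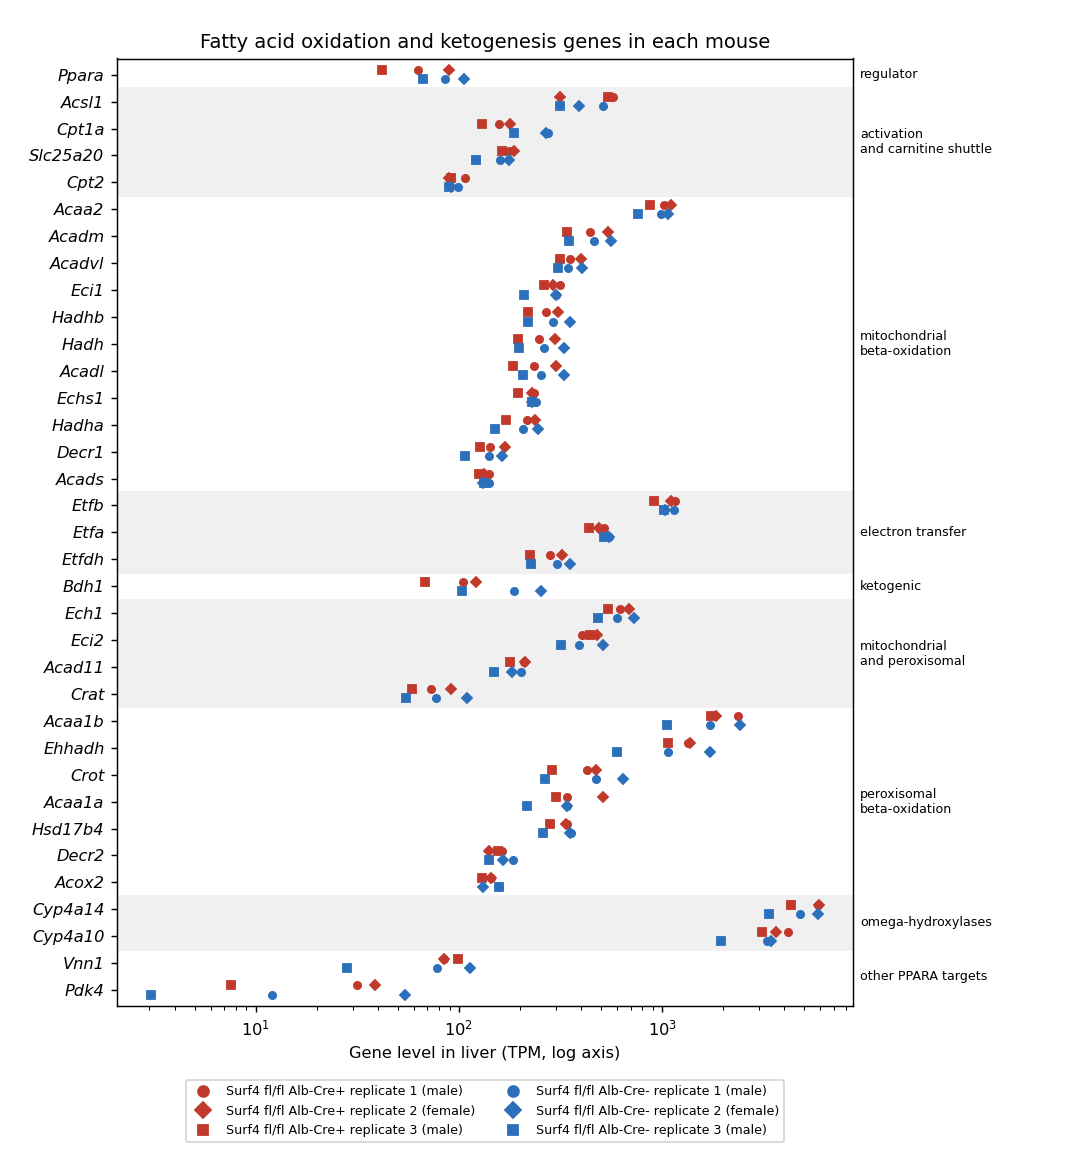
TPM (horizontal log axis) of each of the 35 genes in each mouse (red, *Alb-Cre*+; blue, *Alb-Cre*-; circles, diamonds and squares are replicates 1, 2 and 3). In 28 of the 35 genes the square is the lowest of both colours, and *Cpt1a* and *Etfa* are the genes in which red lies wholly to the left of blue.

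Summed over compartments, the genotypes overlapped. The 18 mitochondrial genes made up 0.658%, 0.670% and 0.550% of all TPM in *Alb-Cre*+ mice and 0.667%, 0.698% and 0.534% in controls. The 7 peroxisomal genes made up 0.512%, 0.482% and 0.396%, and 0.430%, 0.576% and 0.271%. In TPM, the peroxisomal sum was 4632 ± 606 and 4257 ± 1530 (SD, n = 3 each), so that the controls spread more widely than the *Alb-Cre*+ mice. The 2 omega-hydroxylases alone had a higher mean than either organelle, at 8984 ± 1400 and 7543 ± 2007 TPM. In *Alb-Cre*- replicate 3, however, they made up 0.533% of all TPM, beside 0.534% for the mitochondrial genes. Median log2 fold changes were -0.019 for the mitochondrial genes, 0.0019 for the peroxisomal genes and -0.83 for the single ketogenic gene.

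**Figure D4:**
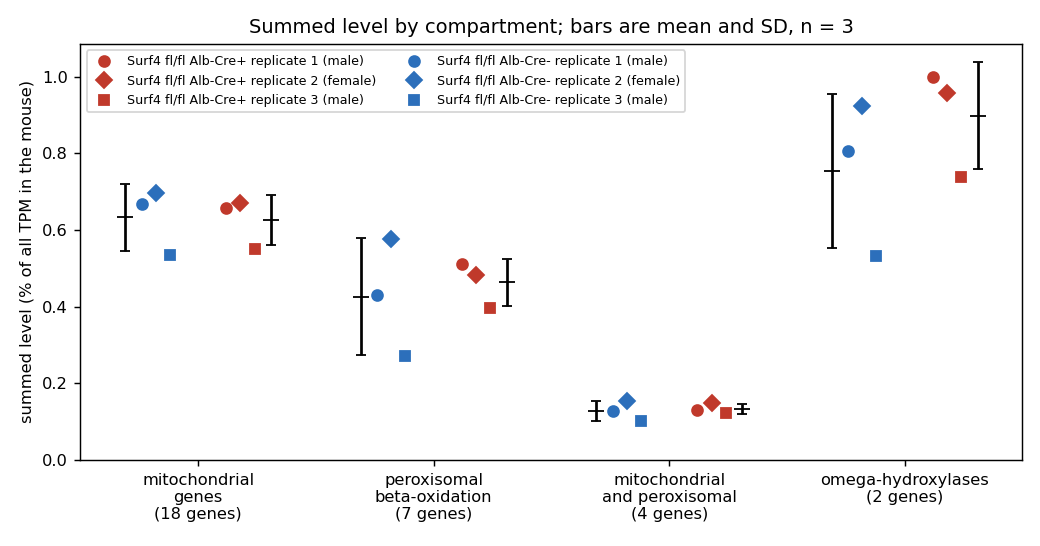
Summed level of each compartment as a percent of all TPM (vertical axis, from 0) in each mouse, with bars for mean and SD (n = 3). Red (*Alb-Cre*+) and blue (*Alb-Cre*-) overlap in all 4 compartments, and the square of replicate 3 is the lowest of each group.

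Mice of the same genotype also differed from each other. Replicate 3 was the lowest mouse in both genotypes in 28 of the 35 (80.0%), beside 35.5% of all genes tested, and replicate 2 was the highest in both in 19 of 35 (54.3%), beside 42.8%. Among controls the highest mouse exceeded the lowest by at most 1.2-fold in 5 genes (*Echs1*, *Etfa*, *Acads*, *Cpt2* and *Etfb*) and by 2-fold or more in 6 (*Acaa1b*, *Crot*, *Bdh1*, *Ehhadh*, *Vnn1* and *Pdk4*). *Alb-Cre*+ replicate 3 also had 51.4% of its TPM in its 50 most abundant genes, where the other 5 mice had 44.2% to 46.8%. The part of this library's composition in the values was not tested. The genotype medians of the 35 genes ran from -0.099 to 0.12 when each mouse was left out in turn, beside -0.12 to 0.11 over all genes tested.

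Replicate 2 was the female in each genotype, so sex and replicate 2 cannot be told apart. With genotype and sex in the model, 0 of the 35 genes passed an adjusted p of 0.01 (limma; 0.514% of all genes tested did, and 0.458% after the scaling named next, with 0 of the 35 again). At an unadjusted p under 0.05, 14 of the 35 were higher in females and 0 lower, where 25.6% of all genes tested were higher and 3.11% lower. After scaling by median of ratios, which moved the median sex difference of all genes from 0.26 to 0.0066 on the log2 scale, 2 of the 35 (*Ppara* and *Pdk4*) were higher and 5 (*Acsl1*, *Cpt2*, *Acads*, *Echs1* and *Acox2*) lower in females, where 13.8% and 13.3% of all genes were. *Ppara* and *Pdk4* were thus the only genes of the 14 called under both scalings. All 6 Kupffer cell markers were higher in the females at that level under both scalings (sums of 461 and 424 TPM in the 2 females, and 116 to 181 TPM in the males), and their part in the sex differences was not tested.

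The interaction of genotype and sex was called in 0 of the 35 genes (limma, 0 at an adjusted p under 0.01 and 0 at an unadjusted p under 0.05, where 6.08% of all genes tested had the latter). With 1 female per genotype, this does not show that the sexes were alike. In *Acaa1b* the male pairs were higher in the *Alb-Cre*+ mouse by 0.46 and 0.71 on the log2 scale, and the female pair was lower by -0.39 (interaction -0.98, standard error 0.55).

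Beyond the 35, 72 other genes of these pathways were listed. In *Alb-Cre*+ mice 40 had a higher and 32 a lower mean, with a median log2 fold change of 0.056, and at an unadjusted p under 0.05 2 were higher and 1 lower (limma; 0 at an adjusted p under 0.01), beside 0.803% and 0.958% of all genes tested. *Acacb*, which makes the malonyl-CoA that inhibits CPT1A, had 6.28, 6.35 and 4.83 TPM in *Alb-Cre*+ mice and 3.85, 4.01 and 3.19 TPM in controls. *Retsat*, a retinol saturase, had 1261, 1276 and 1302 TPM beside 789, 1112 and 584 TPM. *Cyp2b10*, a xenobiotic-inducible cytochrome P450, had 17.8, 19.2 and 8.63 TPM beside 29.0, 25.8 and 34.7 TPM. None of these 3 genes overlapped between genotypes (2.18% of all genes tested were higher and 2.71% lower without overlap), and their log2 fold changes were 0.64, 0.68 and -1.04 (standard errors 0.21, 0.24 and 0.31, adjusted p = 1.00 for each).

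With the block, 14 of the 72 were higher and 6 lower at an unadjusted p under 0.05, beside 2.28% and 2.42% of all genes tested. The smallest adjusted p of these genes, 0.058 with the block, was that of *Fgf21*, the fasting hormone that PPARA raises. *Fgf21* had 4.52, 16.9 and 2.57 TPM in *Alb-Cre*+ mice and 22.7, 70.4 and 9.19 TPM in controls. Each pair was lower in the *Alb-Cre*+ mouse, by -2.31, -2.06 and -1.80 on the log2 scale, and the genotypes overlapped (log2 fold change -2.05, standard error 0.88, limma adjusted p = 1.00 without the block). *Angptl4*, a secreted inhibitor of lipoprotein lipase and likewise PPARA-responsive, had 136, 170.5 and 139 TPM beside 99.2, 141 and 81.1 TPM, higher in all 3 pairs (log2 fold change 0.50, standard error 0.22, limma adjusted p = 1.00). A list of 12 other PPARA-responsive genes held *Angptl4*, *Retsat* and *Cyp2b10*, but not *Fgf21*, which was listed with the regulators. It also left out *Cyp4a10*, *Cyp4a14*, *Pdk4* and *Vnn1*, which are described above. Of these 12 genes, 7 had a higher and 5 a lower mean, with a median log2 fold change of 0.52. At an unadjusted p under 0.05, 1 was higher and 1 lower without the block, and 6 were higher and 3 lower with it, beside the same 2.28% and 2.42% of all genes tested.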

How the data were processed

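Liver RNA of 3 *Surf4* fl/fl *Alb-Cre*+ and 3 *Surf4* fl/fl *Alb-Cre*- mice was analysed, grouped by the labels. The authors deposited TPM per transcript and mouse. Their methods name STAR and RSEM on GRCm38, the submitters' processing notes also name Salmon, and versions are not given in the sources used here. TPM keep no read numbers, so depth is unknown. A deposited table of the authors' DESeq2 comparison (log2 fold changes, p-values) was not used.

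TPM were summed over 116748 transcripts per gene symbol; 163 transcripts without a symbol were left out. After a filter (mean of 0.1 TPM or more), limma 3.58.1 (R 4.3.3) compared genotypes on the scale log2(TPM + 0.1) (variance trend, two-sided, Benjamini-Hochberg adjustment, threshold 0.01, 95% intervals), a scale that understates changes of low genes. Exact permutation tests used scipy 1.17.1. The labels do not say which mice shared a litter. Deviations of same-numbered mice from their group means correlated at r = 0.49, 0.69 and 0.45 over 10635 genes. Males of unlike number also correlated, at r = 0.24 (*Alb-Cre*+ replicate 3, control replicate 1) and 0.11 (*Alb-Cre*+ replicate 1, control replicate 3). A male with a female gave -0.54 to -0.41. From these same values the numbers were taken to pair the mice, and a block was fitted beside the main model. The part of sex in these correlations was not tested, and calls with the block rest on this choice. P-values set the genotype difference against the spread between these mice, and with the block against the spread left after replicate differences. The steps were tested on simulated data.

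Per-mouse values are given for *Ppara*, *Cpt1a*, *Bdh1*, the paralog pairs and members that did not overlap or had an unadjusted p under 0.05 in either model; others shown were chosen after their values were seen. Of the other pathway genes, those at an unadjusted p under 0.05 and the 5 smallest p were named. Some genes are not reported here by name. Members and lists were chosen with earlier results of these data known. Alternatives were the block, sex as covariate, a pseudocount or minimum mean of 1 TPM, no filter, no trend, scaling by median of ratios, males only, an adjusted p of 0.05, and each mouse left out.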

Additional observations from a re-analysis of the deposited data

How the results depend on the processing

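No gene of the 35 passed an adjusted p of 0.01, or of 0.05, under any alternative. The count at an unadjusted p under 0.05 was 1 as reported (1.76% of all genes tested). It was 3 with the replicate block alone (4.69% of all genes), with a pseudocount of 1 TPM (4.59%) or with scaling by median of ratios (5.5%), 3 with sex as a covariate (3.74%), and 2 with scaling by median of ratios (2.32%). With 1 mouse left out it was 0 to 3, with 0 without *Alb-Cre*- replicate 1 (1.83%), 2 without *Alb-Cre*- replicate 3 (1.39%) and 3 without *Alb-Cre*+ replicate 2 (3.56%). The block lowered the standard error of all 3 genes it called and changed no other call among the 35. The count of genes without overlap, 2 as reported, was 9 in males only (25.7% of the 35, beside 32.7% of all genes tested) and 2 to 7 with 1 mouse left out, where 9.58% to 20.3% of all genes did not overlap, beside 4.9% with all 6 mice. The counts without *Alb-Cre*+ replicates 2 and 3 were 4 (20.3% of all genes) and 6 (13.1%), and those without *Alb-Cre*- replicates 2 and 3 were 7 (14.4%) and 6 (9.96%). With scaling by median of ratios the count was 3 (5.81% of all genes), *Cpt1a* and *Bdh1* lower and *Acaa1a* higher, and *Etfa* was no longer among them. The median log2 fold change ran from -0.088 to 0.083 in mitochondrial and from -0.12 to 0.12 in peroxisomal genes with 1 mouse left out. Over all genes tested it ran from -0.12 to 0.11.

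Of 368 values of 23 named genes under 16 alternatives, 355 kept their direction, and 14 genes kept it throughout, *Ppara*, *Cpt1a*, *Bdh1*, *Etfa*, *Cyp4a10* and *Cyp4a14* among them. Their sizes moved with 1 mouse left out, from -0.71 to -0.17 in *Ppara*, -0.81 to -0.51 in *Cpt1a*, -1.19 to -0.54 in *Bdh1*, -0.21 to -0.096 in *Etfa*, 0.10 to 0.51 in *Cyp4a10* and 0.0077 to 0.40 in *Cyp4a14*. With 1 mouse left out, the other 9 had ranges across 0: *Acaa1b* -0.054 to 0.54, *Pdk4* -0.28 to 1.77, *Vnn1* -0.081 to 0.93, *Ehhadh* -0.12 to 0.64, *Hadha* -0.13 to 0.22, *Hadhb* -0.29 to 0.058, *Cpt2* -0.051 to 0.085, *Acadm* -0.22 to 0.13 and *Acadvl* -0.074 to 0.12. The reversals fell on *Alb-Cre*- replicate 3 for *Acaa1b*, *Pdk4*, *Vnn1*, *Ehhadh*, *Hadha* and *Acadvl*, *Alb-Cre*+ replicate 2 for *Hadha* (-0.039) and *Acadvl* (-0.070), *Alb-Cre*+ replicate 3 for *Hadhb* (0.024) and *Acadm*, *Alb-Cre*- replicate 2 for *Hadhb* and *Acadm* (0.12), and *Alb-Cre*+ replicate 1 for *Cpt2*. The cause was not tested. TPM keep no depth, so counting error could not be separated from differences between mice.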

Other observations

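Isoform shares were a further readout of the 35 genes. In 24 of them the main transcript held at least 90% of the gene's TPM in every mouse. Its share did not overlap between genotypes in 5 genes (*Cpt1a*, *Acaa2*, *Acox2*, *Acaa1a* and *Bdh1*), with no test. That is 14.7% of the 34 genes with more than 1 transcript, beside 7.16% of all 12090 such genes tested. In *Acox2*, the bile acid side chain oxidase, the main transcript held 58.7%, 53.8% and 53.7% in *Alb-Cre*+ mice and 63.5%, 58.8% and 59.2% in controls, a mean of 55.4% ± 2.9 and 60.5% ± 2.6 (SD, n = 3 each). The highest *Alb-Cre*+ share was next to the lowest control share. The level of the gene overlapped between genotypes. In the other 4 genes the means differed by less than in *Acox2*. In *Alb-Cre*+ mice and controls they were 99.94% and 99.99% in *Acaa2* and 98.4% and 98.7% in *Acaa1a*. They were 98.0% and 96.9% in *Cpt1a*, and 89.8% and 88.4% in *Bdh1*.

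The main transcript held less than 60% of *Ppara*, *Hadha*, *Hadhb*, *Etfb*, *Eci2* and *Crat* in every mouse, so their summed levels rest on several transcripts each.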
